A study of Mus musculus with 2 samples.

Results

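Amino acid transporters are the membrane proteins that carry amino acids into and out of cells and organelles. The 43 genes described here were listed by name and sorted into 14 transport systems. Each gene was read from the brightest of the probe sets that name it alone, and for 27 of the 43 the higher value of the 2 arrays was at least 7 on the log2 scale, the floor used here. They stand among 9897 such genes of 18193 in all. The list was made because several of these transporters stood lower in the knockout array, so the differences below describe the choice and are not tested.

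The arrays compared cultured rib chondrocytes, the cells that lay down cartilage, from wild-type mice and from miR-140 knockout mice, both aged 5 days and both with the strain label C57BL/6, CBA. miR-140 is a microRNA found mainly in cartilage, and the study looked for messenger RNAs under its control. The part of the locus that was deleted and the number and sex of the mice in each culture are not given in the sources used here. With 1 array per group no p-value or standard error can be given, and every difference is knockout minus wild type on the log2 scale in this pair.

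Most plasma membrane transporters of amino acids are named by systems, which differ in the amino acids they accept and in the ion gradients they use. System L and its relatives work as pairs, in which a light chain of the SLC7 family does the transport and the heavy chain encoded by Slc3a2 brings it to the cell surface. When amino acids run short, the kinase GCN2 favours translation of the transcription factor ATF4, which raises several of these transporters together with enzymes of amino acid synthesis.

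Of the 27 transporters, 7 were at least 1.5-fold lower in the knockout array, against 3.56% of all genes at or above the floor. They are Slc7a1, Slc7a2 and Slc7a3, which carry cationic amino acids, Slc1a5 and Slc7a5, which carry small and large neutral ones, the heavy chain Slc3a2 and the glycine transporter Slc6a9. Of these, 3 were at least 2-fold lower, against 1.22% of all genes. The count of transporters at least 1.5-fold higher was 0, against 1.56% of all genes, and at least 2-fold higher also 0, against 0.475%. The median of the 27 was -0.15, and that of all genes -0.05. A further quantile normalization moved these medians to -0.10 and -0.02. Because the list was chosen on this contrast, nothing about the transporters as a class is read from these shares. Fewer cells of a type and less RNA per cell cannot be told apart in such cultures.

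**Figure D1:**
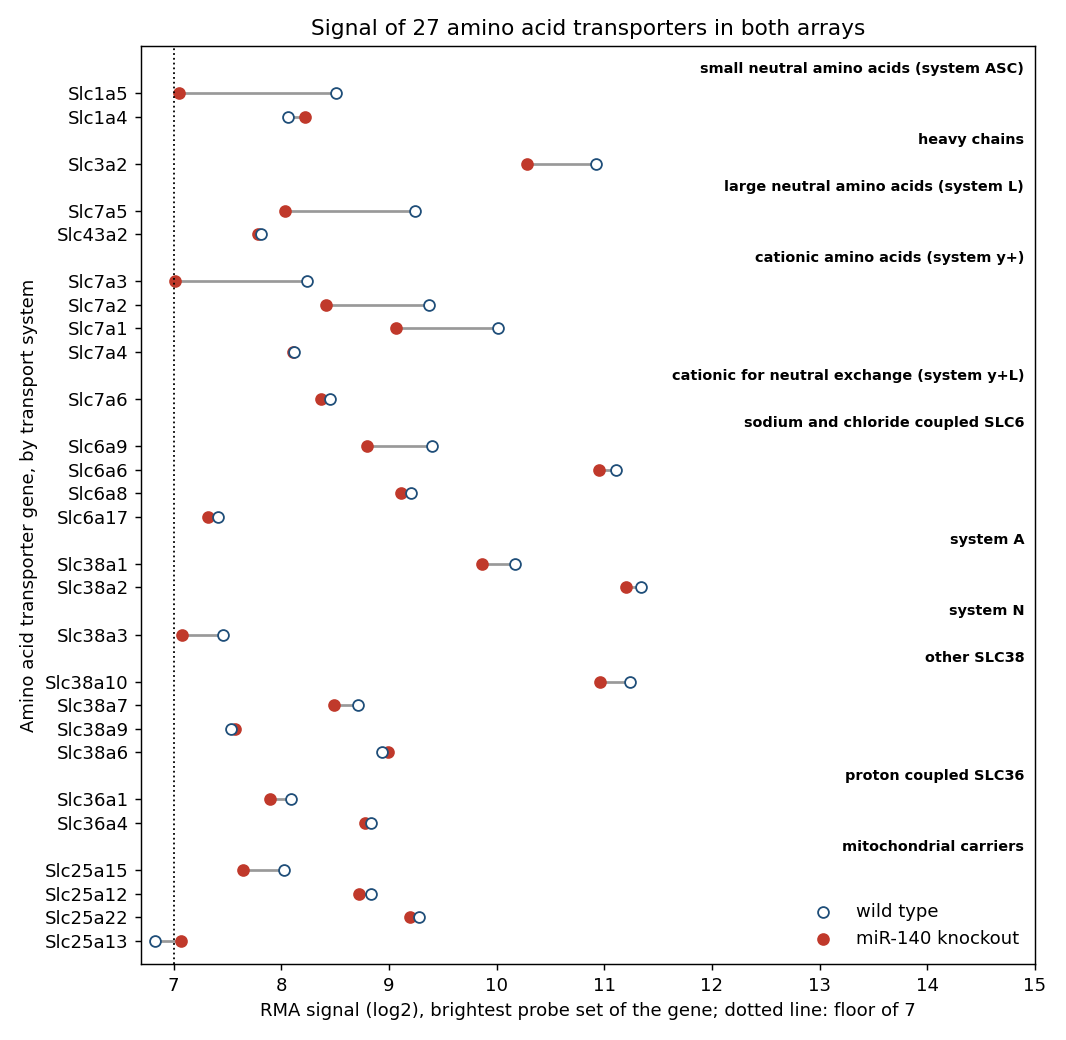
Log2 RMA signal (horizontal axis) of the brightest probe set of each of 27 amino acid transporter genes (vertical axis, by transport system), with open circles for the wild-type array and filled circles for the knockout array, 1 array each; the dotted line marks the floor of 7. The longest lines belong to Slc1a5 (8.50 and 7.05), Slc7a3 (8.24 and 7.01) and Slc7a5 (9.24 and 8.03).

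Pairs of values below give the wild-type array first. In the plot of both arrays by transport system, the wild-type circle lies to the right of the knockout circle for 23 of the 27 genes (21 after median centring). Over all genes above the floor 59.2% were lower, and over the other solute carriers, taken by gene symbol, 71.4%. Most of those lines are short: 20 genes lay within 1.5-fold of equality, with a median of -0.09. Levels of different genes cannot be set against each other on this plot, because each probe set has its own binding strength.

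The probe sets behind the 7 genes are 1416629_at (Slc1a5), 1417022_at (Slc7a3), 1418326_at (Slc7a5), 1436555_at (Slc7a2), 1454991_at (Slc7a1), 1425364_a_at (Slc3a2) and 1417636_at (Slc6a9).

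System y+ carries the cationic amino acids arginine, lysine and ornithine. Slc7a1, the widely expressed carrier of this system, read 10.02 in the wild-type array and 9.07 in the knockout array, or -0.95 (1.93-fold lower). Its second probe set above the floor read 9.44 and 8.46, so both gave nearly the same difference. Slc7a2, which also carries arginine and is induced in activated macrophages, read 9.37 and 8.42 (1.93-fold lower). Further probe sets of Slc7a2 stood at -0.76 and -0.40, in the same direction but less far.

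Slc7a3, another carrier of the same system, read 8.24 and 7.01, or -1.22 (2.33-fold lower). Its knockout signal sits at the edge of the floor, where RMA compresses differences, and it has no second probe set. Slc7a3 is also 1 of 2 transporters above the floor on the X chromosome, the other being Slc6a8. The arrays also differed in Xist, made from the inactive X chromosome (7.01 and 10.60), and in the Y-linked Eif2s3y (8.86 and 4.18), and the part of sex in these differences was not tested. Without X and Y genes 6 of 25 transporters were at least 1.5-fold lower, beside 340 of all 9591 genes left above the floor. Slc7a4, a relative whose own transport is not established, was level by contrast, at 8.11 in both arrays (-0.01).

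Small neutral amino acids such as glutamine, serine and alanine enter through system ASC. Slc1a5, its glutamine exchanger, had the largest difference of all 27 transporters: it read 8.50 and 7.05, or -1.46 (2.75-fold lower). The second Slc1a5 probe set lay under the floor in both arrays, at 6.07 and 5.93, and averaging it in brought the gene to -0.80. Slc1a4, the other carrier of this system, read 8.07 and 8.22, and its 2 further probe sets above the floor stood at -0.30 and -0.12. The ASC pair thus differed from each other in these arrays, and the Slc1a4 probe sets had no common direction. Slc7a10 lay under the floor.

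System L exchanges large neutral amino acids, leucine among them, against glutamine. Its main light chain in growing cells, Slc7a5, read 9.24 and 8.03, or -1.21 (2.32-fold lower), by the 1 probe set that names it. Slc3a2, the heavy chain that Slc7a5 and other light chains need, read 10.93 and 10.28, or -0.65 (1.57-fold lower), also by a single probe set. Both partners of this exchanger were therefore lower, the light chain by more. Slc43a2, a facilitated carrier of the same substrates that needs no heavy chain, read 7.81 and 7.78, a difference of -0.03. The remaining carriers of this system, Slc7a8 and Slc43a1, lay under the floor.

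Other light chains that pair with Slc3a2 lay nearer to equality or under the floor. Slc7a6, which exchanges cationic for neutral amino acids (system y+L), read 8.45 and 8.37, and its second probe set differed by -0.25. Slc7a7, of the same system, stayed just under the floor at 6.94 and 6.72. Slc7a11, the cystine and glutamate exchanger that supplies cysteine for glutathione, read 5.01 and 4.94, and its other probe set 4.47 and 4.75. Both Slc7a11 probe sets are thus close to background in the 2 arrays, where a difference cannot be read.

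The SLC6 carriers use the sodium and chloride gradients. Slc6a9, a glycine transporter, read 9.40 and 8.80, or -0.60 (1.52-fold lower). Its second probe set was level, at 8.17 and 8.12, so the 2 Slc6a9 probe sets differ and the mean of both gave -0.33. Slc6a9 is also the 1 gene of the 7 that dropped just inside 1.5-fold after median centring (-0.55), further quantile normalization (-0.57) and lowess centring (-0.56). Slc6a6, the taurine transporter, read 11.11 and 10.95, with other probe sets at -0.21 and 0.08. Slc6a8, which carries creatine, read 9.21 and 9.11, with a second probe set at -0.39. Slc6a17, a carrier of neutral amino acids on synaptic vesicles, read 7.41 and 7.32.

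System A takes up alanine, serine and glutamine with sodium. Slc38a1 is listed among the proposed miR-140 targets, for which a rise without the microRNA is the direction that repression would give. Its brightest probe set read 10.17 and 9.86, a difference of -0.31, and its second read 9.23 and 9.34, a difference of 0.11. The 2 Slc38a1 probe sets therefore disagree in sign, both lie within 1.5-fold of equality, and no direction is given for the gene. Slc38a2, the system A carrier that cells raise when amino acids are short, read 11.35 and 11.20, with a second probe set at 9.27 and 9.58. It too has probe sets of both signs.

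Of the strands of miR-140, the RefSeq table used here lists miR-140-3p, and miR-140-5p is named only. The strand miR-140-3p is shown as a product of the Mir140 gene, with its seed, bases 2 to 8, in capitals. The seed is the part of a microRNA that pairs with messenger RNAs, and nothing here ties the strand shown to Slc38a1. It maps to chr8:107551288-107551308 (GRCm38.p6, plus strand). The Slc38a1 transcript was not searched for either seed, since no transcript sequences were used here.
mmu-miR-140-3p: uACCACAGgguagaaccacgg

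Among other SLC38 genes, Slc38a3, a system N carrier of glutamine, read 7.46 and 7.07 (-0.38), close to the floor in the knockout. Slc38a7, a lysosomal glutamine exporter, read 8.71 and 8.49 (-0.22). Slc38a9, the lysosomal arginine sensor of the mTORC1 pathway, read 7.53 and 7.57, and Slc38a6 read 8.94 and 9.00. The lysosomal pair thus showed no difference past 1.5-fold. Slc38a10 read 11.24 and 10.96 (-0.27) by its brightest probe set. Its 5 other probe sets above the floor ran from -0.44 to 0.62, and the highest of them, at 8.58 and 9.20, was past 1.5-fold in the opposite direction, so no direction is given for Slc38a10.

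Proton-coupled and mitochondrial carriers lay nearer to equality than the 7 genes above. Slc36a1, a proton-coupled exporter of lysosomes, read 8.09 and 7.90, and Slc36a4 read 8.83 and 8.78. Of the mitochondrial carriers, Slc25a15, the ornithine carrier of the urea cycle and of arginine metabolism, read 8.02 and 7.64 (-0.38). Slc25a12, an aspartate and glutamate carrier, read 8.83 and 8.72, and Slc25a22, which carries glutamate, 9.28 and 9.20. Slc25a13, the second aspartate and glutamate carrier, read 6.83 and 7.07 (0.24). All 6 of these genes stayed within 1.5-fold of equality.

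The other 16 transporters stayed under the floor in both arrays, between 3.65 and 6.999, and their differences ran from -0.26 to 0.37. They are the glutamate transporters Slc1a1, Slc1a2 and Slc1a3, the second heavy chain Slc3a1, and Slc7a7, Slc7a8, Slc7a10, Slc7a11, Slc43a1, Slc6a14, Slc6a15, Slc6a20a, Slc16a10, Slc36a2, Slc38a4 and Slc38a5. Just inside the limit were Slc25a13 (7.07 as its higher value) and Slc6a17 (7.41), and just outside Slc16a10 (6.999), an aromatic amino acid carrier, and Slc7a7 (6.94). Such low signal cannot be told from background and does not show that these transporters are absent.

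**Figure D2:**
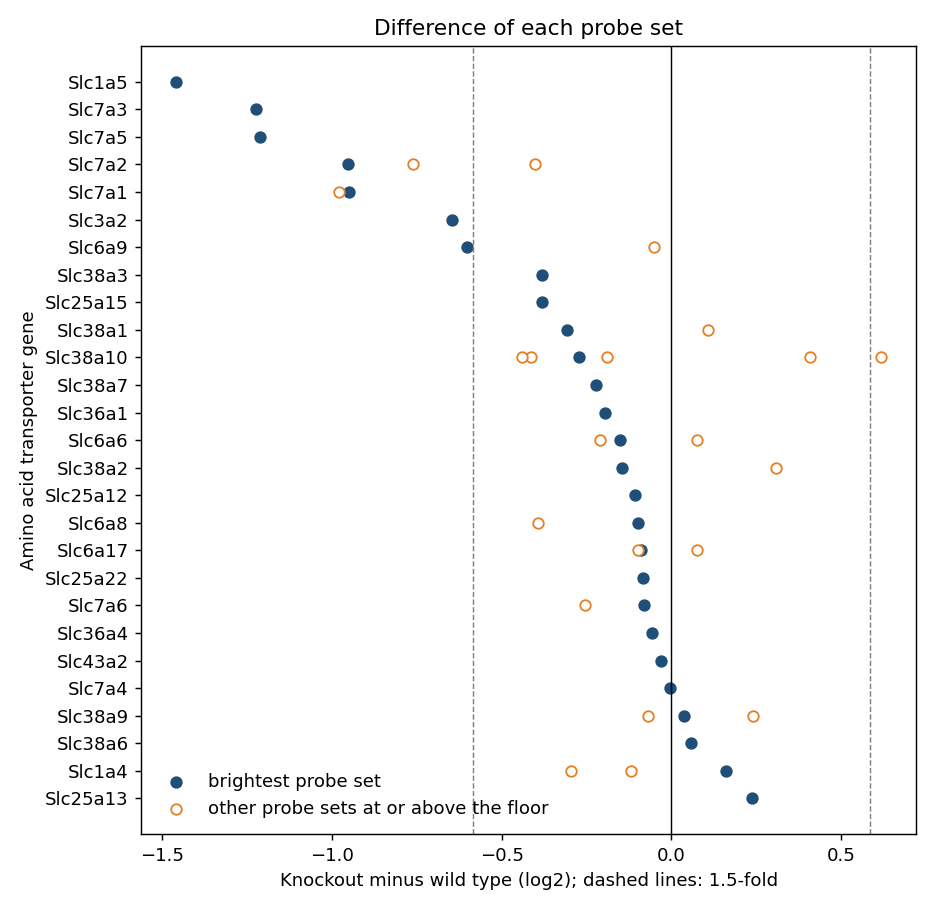
Knockout minus wild-type difference on the log2 scale (horizontal axis) of each probe set at or above the floor for 27 amino acid transporters (vertical axis, sorted by difference); filled circles are the brightest probe set, open circles the others, dashed lines mark 1.5-fold and 1 array stands behind each side. All 11 probe sets of the 7 genes at the top lie left of 0, and 9 of them past 1.5-fold. These 7 genes were picked by their brightest probe set, so their filled circles lie past 1.5-fold by that choice. Their open circles were free to differ: Slc7a1 at -0.98, Slc7a2 at -0.76 and -0.40, and Slc6a9 at -0.05. Slc38a10 spreads from -0.44 to 0.62.

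How far probe sets of a gene bear each other out is seen in the plot of single probe sets. The 27 transporters have 48 probe sets at or above the floor, of which 37 were lower and 11 higher in the knockout. The share over all probe sets was not counted, and among all genes 59.2% were lower. Of the 37, 11 belong to the 7 genes past 1.5-fold, so the count is no separate support. Of 12 genes with several such probe sets, 7 had both signs: Slc1a4, Slc38a1, Slc38a10, Slc38a2, Slc38a9, Slc6a17 and Slc6a6. None of the 7 genes past 1.5-fold is among them, but the brightest probe set of each was lower by the choice of these genes. Of those 7, however, 4 rest on a single probe set above the floor (Slc1a5, Slc7a3, Slc7a5 and Slc3a2). Slc7a1 is the 1 gene of the 7 with more than 1 probe set above the floor where all of them passed 1.5-fold.

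**Figure D3:**
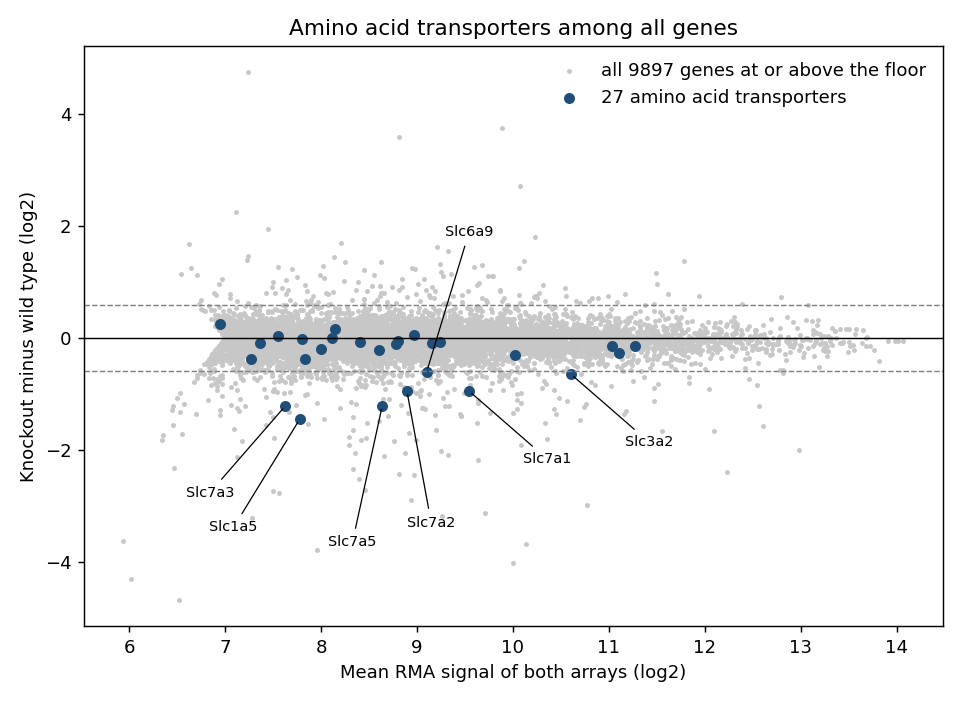
Knockout minus wild-type difference on the log2 scale (vertical axis) against the mean log2 RMA signal of both arrays (horizontal axis) for 9897 genes at or above the floor (grey) and 27 amino acid transporters (blue), 1 array per group; dashed lines mark 1.5-fold. The 7 labelled transporters lie below the lower dashed line, from Slc6a9 at -0.60 to Slc1a5 at -1.46.

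The plot of difference against mean signal shows where the 7 genes sit. Their mean signals, which depend on the probe set as well as on the gene, lie in different parts of the range. The other 20 transporters fill the band around 0 that most genes occupy.

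Sequence around the transcript start was available for 32 of the 43 genes in the RefSeq promoter table (GRCm38.p6), which holds 250 bases before and 50 after each listed start. Of the 7 lower genes, Slc3a2, Slc7a1 and Slc6a9 have entries, and the entry of each that holds a motif match is shown because these genes moved the same way. Capitals mark matches to GGGCGG, the GC box bound by Sp1-type factors, on either strand. The Slc3a2 window is chr19:8713848-8714147 (minus strand), that of Slc7a1 chr5:148399855-148400154 (minus strand), and that of Slc6a9 chr4:117835008-117835307 (plus strand).
Slc3a2: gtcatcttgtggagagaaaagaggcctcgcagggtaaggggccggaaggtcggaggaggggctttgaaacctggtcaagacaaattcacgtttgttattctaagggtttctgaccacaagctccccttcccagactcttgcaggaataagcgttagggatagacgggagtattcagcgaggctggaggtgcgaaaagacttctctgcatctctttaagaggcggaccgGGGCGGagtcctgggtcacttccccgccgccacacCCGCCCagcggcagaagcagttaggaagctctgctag
Slc7a1: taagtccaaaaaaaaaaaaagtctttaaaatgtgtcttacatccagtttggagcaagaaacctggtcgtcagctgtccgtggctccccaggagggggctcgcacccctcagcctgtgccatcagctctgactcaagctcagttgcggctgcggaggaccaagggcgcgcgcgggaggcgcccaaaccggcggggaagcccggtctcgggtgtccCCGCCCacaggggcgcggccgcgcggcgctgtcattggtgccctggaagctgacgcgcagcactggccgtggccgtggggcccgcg
Slc6a9: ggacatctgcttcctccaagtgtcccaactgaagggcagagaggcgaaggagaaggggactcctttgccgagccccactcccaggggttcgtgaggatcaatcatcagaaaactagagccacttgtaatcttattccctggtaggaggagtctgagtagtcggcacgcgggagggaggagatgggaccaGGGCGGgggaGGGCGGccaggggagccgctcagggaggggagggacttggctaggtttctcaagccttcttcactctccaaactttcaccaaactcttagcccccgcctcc

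The GC box was found in 35.7% of all 32851 promoter windows and in 31 of the 47 windows of listed transporters, and in 3 of the 6 windows of Slc3a2, Slc7a1 and Slc6a9, with 2, 1 and 2 matches. The E-box CACGTG, bound by MYC and related factors, was in 7.15% of all windows, in 6 of the 47 and in none of those 6. TGATGNAA, the composite site of ATF4 and its CEBP partners, was in 3.97% of all windows, in 4 of the 47 and in none of those 6. No match says only that these letters are not in these 300 bases. Both strands were searched, and each motif was counted on its own wherever matches overlapped. Windows of 1 gene can overlap, so 1 site can be counted in more than 1 window. By gene, the GC box was in 23 of the 32 genes, the E-box in 6 and TGATGNAA in 3.

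Matches to TGATGNAA were found in 3 listed genes, Slc7a11, Slc1a4 and Slc7a7. Short stretches from the first 2 are shown, chosen after their values were seen, because these genes hold the site and are not among the 7 lower genes. The same holds for Slc7a7, which read 6.94 and 6.72, under the floor, and whose stretches are not shown. The stretch of Slc7a11 is chr3:50443647-50443685 and that of Slc1a4 chr11:20332704-20332723, both on the minus strand, with the matches in capitals.
Slc7a11: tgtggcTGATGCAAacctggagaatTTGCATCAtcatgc
Slc1a4: cctgcgTTGCATCAtctcca

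Slc7a11 holds 2 matches facing each other, and its signal was close to background in both arrays (5.01 and 4.94). Slc1a4 holds 1 match that spans the transcript start, and it read 8.07 and 8.22. A match is a description of letters and not a bound site.

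**Figure D4:**
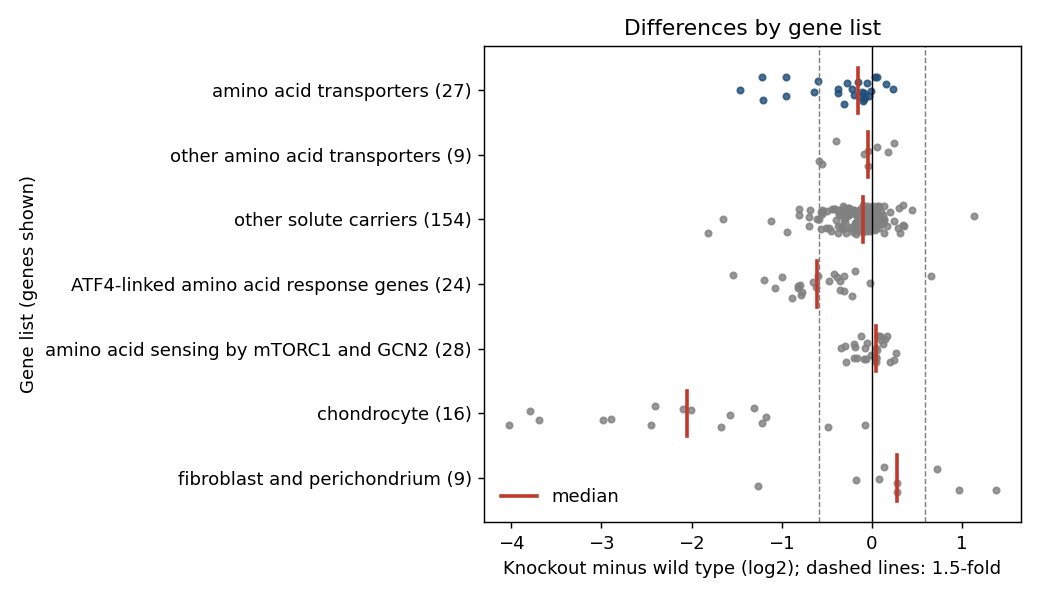
Knockout minus wild-type difference on the log2 scale (horizontal axis) of each gene at or above the floor in 7 gene lists (vertical axis, number of genes in brackets), with points for genes, red bars for medians and dashed lines at 1.5-fold; 1 array per group. The medians lie at -0.15 for amino acid transporters, -0.61 for ATF4-linked genes, 0.04 for sensing genes and -2.05 for chondrocyte markers.

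Genes that act with these transporters were read from lists chosen with earlier results of these data known. Of 24 ATF4-linked amino acid response genes above the floor, 23 were lower in the knockout (22 after median centring), 13 of them by at least 1.5-fold, and the median was -0.61. These counts stand beside 59.2% lower and 3.56% at least 1.5-fold lower among all genes. The farthest were Cth (8.64 and 7.10), an enzyme of cysteine synthesis, Trib3 (9.43 and 8.23), a feedback inhibitor, Psph (9.81 and 8.73), the last enzyme of serine synthesis, and Chac1 (9.63 and 8.63), which degrades glutathione. Gadd45a was the 1 higher gene, at 0.66. With only probe sets that lack a suffix for shared transcripts, 16 were lower, 3 higher and 7 at least 1.5-fold lower, with a median of -0.35. With the mean of probe sets the median was -0.43. Atf4 itself differed by -0.39; it and Gadd45a were named after their values were seen.

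Genes of amino acid sensing lay close to equality in both directions. Of 28 genes of the mTORC1 and GCN2 pathways above the floor, 13 were lower and 15 higher, none by 1.5-fold, with a median of 0.04. Seh1l (-0.35), Rraga (-0.30), Rptor (-0.28) and Lamtor4 (0.26) were farthest from 0. Of 36 genes listed as other amino acid and peptide transporters, 9 were above the floor, none past 1.5-fold, with a median of -0.05. Among all genes 3.56% were at least 1.5-fold lower and 1.56% at least 1.5-fold higher. Finding none in lists of 28 and 9 genes is near those shares and sets neither list apart. Of the 9, Slc15a4, a lysosomal histidine and peptide carrier, came closest to 1.5-fold, at -0.58. Slc43a3, whose carriage of amino acids was not checked here, stood at -0.55, Slc25a44 at -0.39 and Slc6a19 at 0.25. The other solute carriers were taken by gene symbol (Slc and a number), and not each was checked to be a carrier. Over all 154 such genes above the floor, which include 8 of those 9, the median was -0.10. Of the 154, 10 genes (6.49%) were at least 1.5-fold lower and 1 (0.65%) at least 1.5-fold higher, beside the shares of all genes given above.

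Cell type markers also differed between the arrays. All 16 chondrocyte markers above the floor, of 17 listed, were lower, 14 of them at least 2-fold, with a median difference of -2.05 and a median signal of 11.91 and 8.67. Among all 9897 genes above the floor 59.2% were lower, 3957 were higher and 1.22% were at least 2-fold lower. Acan, the core protein of aggrecan, differed by -4.03, Col9a2 by -3.80, Ucma by -3.69 and Col9a3 by -2.99. Col2a1, a defining collagen of cartilage also named after its values were seen, still read 11.98 in the knockout array, against 13.98 in the wild-type array. Of 11 fibroblast and perichondrium markers 9 were above the floor, 7 of them higher, with a median difference of 0.27 and a median signal of 11.06 and 11.97. Col3a1 differed by 1.38, Postn by -1.26, Lum by 0.96 and Fbln2 by 0.72. Of 7 macrophage and leukocyte markers 4 were above the floor, none past 1.5-fold. Of 6 adipocyte markers 4 were above the floor: Lpl at 1.11, Fabp4 at 0.51, Cebpa at -0.48 and Pparg at -0.18. Endothelial and skeletal muscle lists had 1 gene each above the floor, Kdr at -0.06 and Des at 0.14, and the osteoblast list had 0. The part of the change in cell type markers in the lower transporters was not tested.

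The mature miR-140 strands were not measured by these arrays, and Wwp2, the gene that holds Mir140 in an intron, read 9.65 and 7.13.

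**Figure D5:**
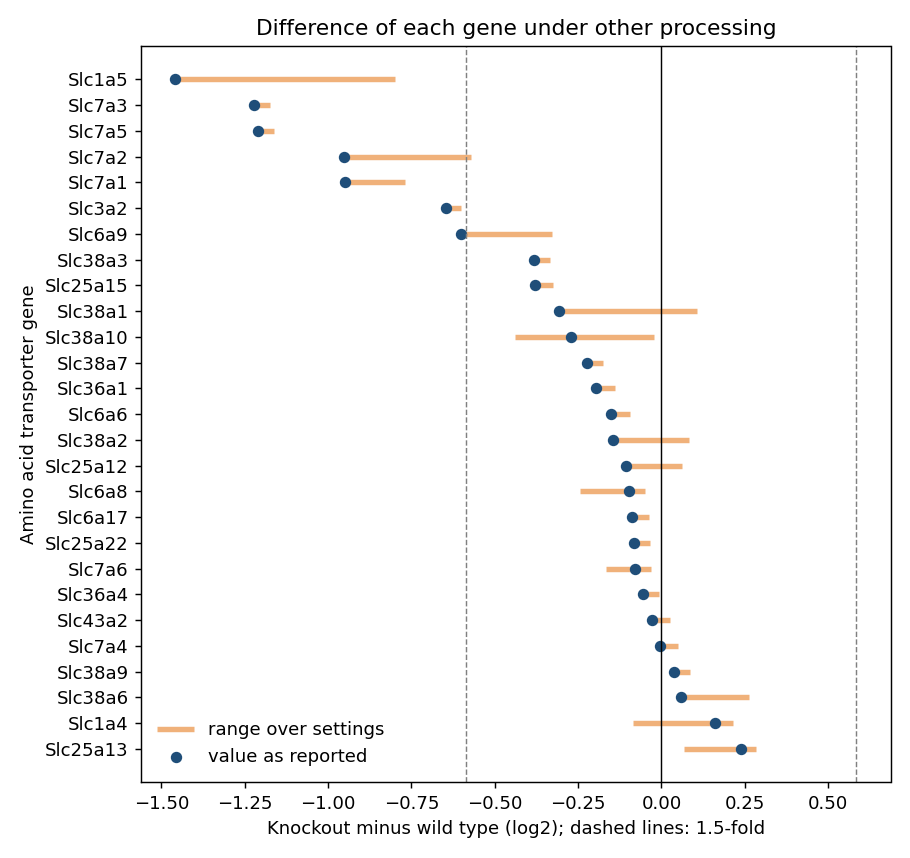
Knockout minus wild-type difference on the log2 scale (horizontal axis) of 27 amino acid transporters (vertical axis), with points for the value as reported and bars for the lowest to highest value over 10 to 12 processing settings a gene; dashed lines mark 1.5-fold, 1 array per group. Slc7a3 and Slc7a5, which have 1 probe set each, barely move (-1.22 to -1.17 and -1.21 to -1.16). Slc1a5 spans -1.46 to -0.80 and Slc38a1 spans -0.31 to 0.11.

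The plot of ranges over processing settings shows how far each value moved with the processing of this pair. Other floors only keep or drop a gene, so they add no width to a bar. Slc7a3, Slc7a5 and Slc3a2 have 1 probe set each, so only the 3 scalings moved them, and a short bar there does not show a firmer value. Slc7a3, Slc7a5, Slc7a1 (-0.96 to -0.77), Slc3a2 (-0.65 to -0.60) and Slc1a5 stayed at least 1.5-fold lower in every setting that gave a value. Slc7a2 ranged from -0.95 to -0.57, the last with the mean of all its probe sets, and Slc6a9 from -0.60 to -0.33. Among the others, Slc38a1, Slc38a2, Slc1a4 and Slc25a12 changed sign when other probe sets entered the mean or replaced the brightest, and Slc43a2 and Slc7a4 lay so near 0 that other scalings turned their sign.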

How the data were processed

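Total RNA of 2 cultures was measured on Affymetrix Mouse Genome 430 2.0 arrays, 1 per group, grouped by sample title. The deposited values are log2 signals; the authors summarised them as robust multichip averages (RMA), per the design text in the labels, in Affymetrix Expression Console 1.1, per the submitters' processing notes. The log2 scale follows from the range of the values, 3.24 to 14.2. RMA gives arrays a common distribution and would hide a shift common to most genes. The set of arrays it was run on is not stated in the labels.

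Of 45101 probe sets, 64 are controls, 34945 carry a single gene symbol in the platform annotation, 932 several and 9160 none. Each gene was read from its brightest probe set (mean of the arrays), if either value reached 7. Named genes were all listed transporters above this floor and up to 4 members of each other list with the largest differences; genes named beyond that rule were chosen after their values were seen, as were the solute carriers of the closing section. The transporters, lists and tests were chosen with earlier results of these data known. The step that counts genes past 1.5-fold was tested on simulated data with known differences, which tests the calculation and not these arrays. With 1 array per group there is no test, and precision is limited by that number. Alternatives were a 2-fold threshold, 3 scalings, 3 floors, 2 other probe set rules and low values raised to 7. The mean of probe sets above the floor and the omission of X and Y genes were chosen after seeing the data. Python 3.11.15, pandas 2.3.3 and statsmodels 0.14.6 were used.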

Additional observations from a re-analysis of the deposited data

How the results depend on the processing

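The count of 7 transporters at least 1.5-fold lower became 3 with a 2-fold threshold, and was 5 to 7 in the other settings. The count higher was 0 in each. Between 22 and 43 transporters were read, depending on the setting. Among all genes 1.22% were at least 2-fold lower. The share of all genes at least 1.5-fold lower ran from 2.34% (no floor) to 3.92% (floor of 8), and at least 1.5-fold higher from 1.19% to 1.89%. Of the 14 transport systems, 11 had a member above the floor and 4 a median at least 1.5-fold lower, of which heavy chains rest on 1 gene and systems ASC and L on 2 each. That count was 3 in 5 settings (median and lowess centring, a floor of 6, the mean of all probe sets, probe sets without suffix) and 1 with no floor, where dim members enter the medians. The median of the transporters ran from -0.21 (floor of 8) to -0.10. Of 284 values of single transporters under other settings, 278 stayed on their side of 1.5-fold and 6 did not: Slc6a9 in 5 settings and Slc7a2 with the mean of all its probe sets (-0.57). Many of the 284 could not move, because other floors and the omission of X and Y genes only keep or drop a gene. The 278 are thus no measure of how firm the values are. No paired analysis was possible because each group has 1 array. Signal near the floor limits the folds of Slc1a5 and Slc7a3.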

Other observations

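Solute carriers that do not move amino acids included some with larger differences than the amino acid transporters. Slc26a2, the sulphate carrier that cartilage needs for proteoglycan sulphation, read 9.89 and 8.08 in the wild-type and knockout arrays (3.53-fold lower). Slc39a8 and Slc39a14, importers of zinc and manganese, were 3.15-fold and 1.62-fold lower, and Slc20a1, a phosphate importer, 1.61-fold lower. Slc12a2, a sodium, potassium and chloride cotransporter, was 1.92-fold lower. Slc40a1, the iron exporter ferroportin, read 7.99 and 9.11 and was the 1 solute carrier at least 1.5-fold higher (2.19-fold). These genes were picked for their known roles after their values were seen, and others with differences of that size are not named.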
